A study of Oryza sativa with 24 samples.

Results

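EXPB4, EXPB7, EXPB11 and EXP2 are 4 expansin genes of rice whose probe sets were lower in seedlings of all 8 accessions after 6 h and after 24 h at 4 °C. They were chosen on those time contrasts in these same arrays. Each was found by its symbol or synonym in the probe set annotation and is represented by the probe set that is annotated to this gene alone. They are 4 of 17905 genes with such a probe set, and 4 of the 29 expansin and expansin-like genes measured out of 49 in the gene table. EXPB4 (LOC4349350) lies on chromosome 10, EXPB7 (LOC4331300) on chromosome 3, EXPB11 (LOC4330213) on chromosome 2 and EXP2 (LOC4327568, also EXPA2) on chromosome 1. The EXPB4 probe set has the suffix that marks probes shared by several transcripts, so a closely related transcript may add to its value.

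Expansins are secreted wall proteins that loosen the network of cellulose and matrix polysaccharides without cutting it, so that a cell under turgor can enlarge. The alpha class (EXPA) and the beta class (EXPB) are the main branches, and beta-expansins are numerous in grasses, whose walls are poor in xyloglucan and rich in arabinoxylan. In leaves they are mostly associated with the growing zone and with young, expanding tissue.

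The study put 8 rice accessions (MH63, Lixingeng, Muguanuo, Youmangzaogeng, Geng87-304, ZS97, IRAT109 and 9311) at 4 °C at the 4-leaf stage and took shoot and leaf tissue before cold, at 6 h and at 24 h, under 14 h of light and 10 h of dark. No genotype or treatment other than accession and cold distinguishes the groups. Each accession has 1 array at each time, 24 Affymetrix arrays in all, so an accession is a replicate of a time point and there is no replicate within an accession. The labels do not say how many plants went into an array or whether the accessions were grown apart. The groups hold no untreated array at 6 h or 24 h, so cold, time of day and age cannot be told apart. The tissue is a mixture of cells, in which fewer cells of a type and less RNA per cell cannot be told apart.

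A pair of arrays stands apart from the rest and touches every result below. Values of Lixingeng before cold and MH63 at 24 h had a Spearman correlation of 0.992, the highest of 276 pairs of arrays, although the labels give them different accessions and times. The next pair, MH63 before cold and MH63 at 6 h, reached 0.981. Each of these 2 arrays also deviated little with the others of its own labelled accession (r of deviations from the time means 0.248 to 0.322), whereas pairs of arrays without them gave 0.652 to 0.886. Whether an array is mislabelled or repeated was not tested and is not settled by the labels, so MH63 at 24 h and Lixingeng before cold stand below for the arrays so labelled. Results on the 4 genes are given with and without them. Array medians ranged from 41.7 to 46.6 intensity units. From before cold to 24 h the 75th percentile shifted by -8.53 ± 3.22 units (SD, n = 8), and the 3′ to 5′ log2 ratio of the actin control probes by -0.43 ± 0.31, both downward in every accession. The part of either measure in the results was not tested. Markers of shoot and leaf were abundant, with a summed intensity of 32090 to 37393 for the 3 measured of the 4 listed genes found by symbol. None of the 3 passed a time contrast (limma, adjusted p under 0.05). All 4 pollen and anther markers measured stayed below the highest of 10 fungal control probe sets on every array, the level used as background. So did 4 of the 6 root-preferential markers measured. Of those 6, 0 changed at 6 h and 2 fell at 24 h (limma), and their summed intensity had a median of 520 before cold, 440 at 6 h and 358 at 24 h. Lsi1, a silicon channel gene above the fungal controls on all 24 arrays, fell by 0.75 at 24 h in 8 of 8 accessions (limma, adjusted p = 7.18e-07). The part of these markers in the expansin differences was not tested.

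EXPB4, a beta-expansin, was lower at 6 h and lower again at 24 h in most accessions. Its intensity before cold ranged from 322 in 9311 over a median of 715 to 1166 in Muguanuo. At 6 h it ranged from 106 over 180 to 349, and at 24 h from 64.3 over 97.6 to 720. The 24 h value of 720 belongs to MH63, an array that stands apart, and the other 7 accessions lay between 64.3 and 149. Within accessions the log2 difference (all log2 differences are of intensity plus 32) was -1.59 ± 0.49 at 6 h and -2.14 ± 0.97 at 24 h (SD, n = 8). With the arrays that stand apart removed these were -1.66 ± 0.48 (n = 7) and -2.41 ± 0.80 (n = 6). EXPB4 was above the fungal controls on 7 of 8 arrays at 6 h and 5 of 8 at 24 h, 3 of these 6 accessions among them. With each array below the controls set to its control, EXPB4 was at least 3.08-fold lower at 6 h (n = 7) and at least 5.16-fold lower at 24 h (n = 6). Muguanuo had the largest measured differences of the 8 accessions at both times, -2.64 and -3.64, the second from a 24 h intensity of 64.3 at the edge of background.

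EXPB7, also a beta-expansin, reached background. Before cold its intensity ranged from 156 in ZS97 over a median of 266 to 387 in Muguanuo, above the fungal controls on 8 of 8 arrays. At 6 h it ranged from 31.7 over 69.6 to 88.1 and was above the controls on 0 of 8. At 24 h it ranged from 23.4 over 32.4 to 217, with MH63 as the 1 array above the controls and the other 7 between 23.4 and 38.3. All 6 h arrays were below all arrays before cold, which held for 0.653% of all probe sets. The measured differences, -1.59 ± 0.26 at 6 h and -1.94 ± 0.66 at 24 h (SD, n = 8), fall below what the array can resolve, so a bound is the better statement. Set against the highest fungal control of each array, EXPB7 was at least 2.36-fold lower at 6 h over the 8 accessions. With both arrays that stand apart removed, the bound was at least 2.40-fold at 6 h and at least 2.51-fold at 24 h.

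EXPB11 split the accessions more widely before cold than the other genes. Its intensity ranged from 182 in ZS97 over 331 to 778 in Geng87-304, then from 73.6 over 122 to 233 at 6 h, and from 34.8 over 58.2 to 348 at 24 h. MH63 was again the highest 24 h array, and the other 7 lay at or below 106. EXPB11 was above the fungal controls on 5 of 8 arrays at 6 h and 2 of 8 at 24 h, so most of its 24 h values are bounds. The log2 difference was -1.26 ± 0.27 at 6 h and -1.83 ± 0.67 at 24 h (SD, n = 8). Without the arrays that stand apart it was -1.29 ± 0.26 (n = 7) and -1.97 ± 0.67 (n = 6), with Geng87-304 lowest at -3.19 and IRAT109 highest at -1.40 at 24 h. With each array below the controls set to its control, EXPB11 was at least 2.23-fold lower at 6 h (n = 7) and at least 3.02-fold lower at 24 h (n = 6).

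EXP2, the alpha-expansin, remained above background on all 24 arrays. Its intensity ranged from 516 in 9311 over 816 to 1379 in MH63 before cold, from 279 over 408 to 659 at 6 h, and from 119 over 194 to 689 at 24 h. Here too the highest 24 h value is the MH63 array, while the other 7 lay between 119 and 265. The log2 difference was -0.89 ± 0.18 at 6 h and -1.77 ± 0.41 at 24 h (SD, n = 8), or -0.91 ± 0.18 (n = 7) and -1.94 ± 0.24 (n = 6) without the arrays that stand apart. The 6 accessions left lay between -2.39 in Geng87-304 and -1.76 in Muguanuo.

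**Figure D1:**
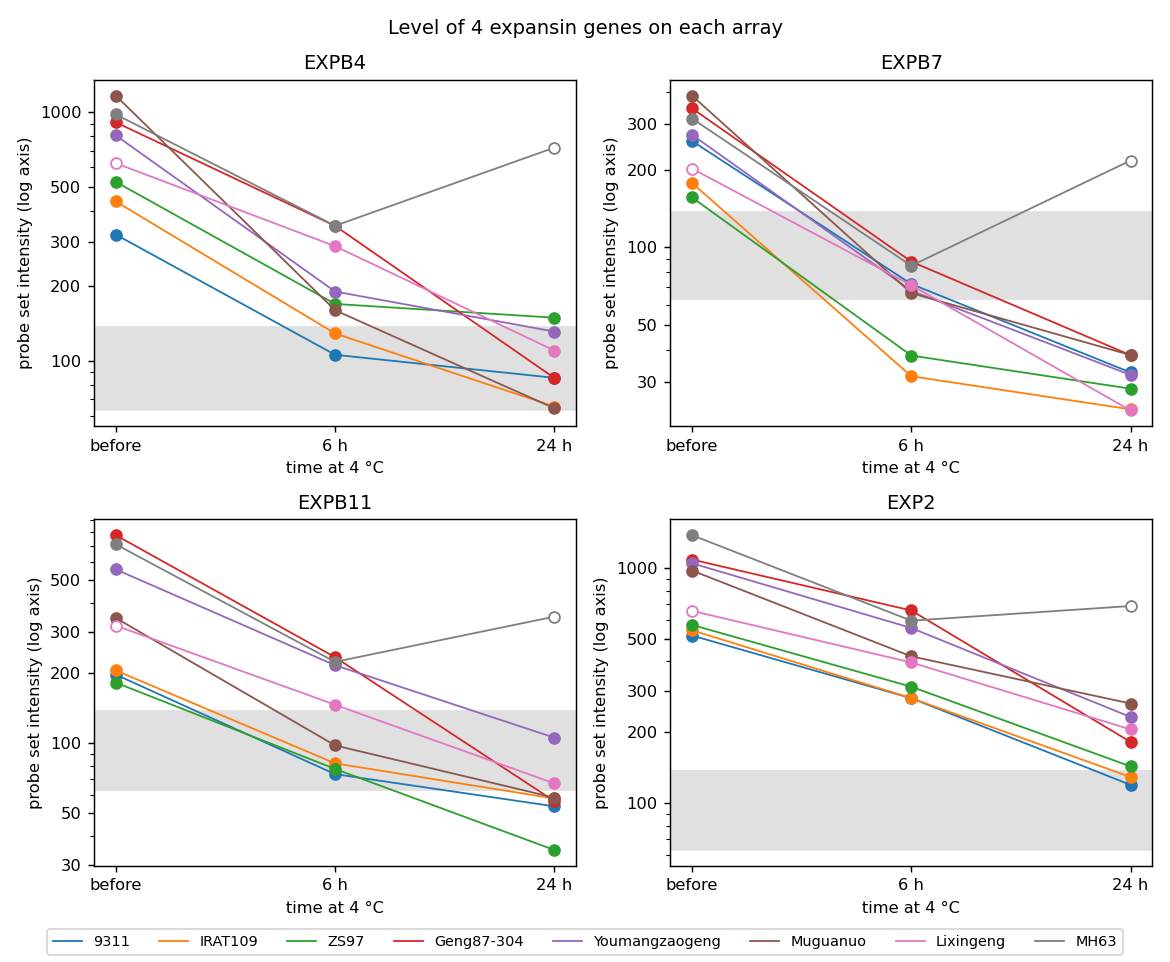
Intensity (log axis) of EXPB4, EXPB7, EXPB11 and EXP2 before cold, at 6 h and at 24 h at 4 °C, 1 line per accession and 1 point per array. Open points are the 2 arrays that stand apart, and the grey band spans the highest fungal control over the arrays, 63.1 to 137. MH63 at 24 h is the only 24 h point above 265 in any panel.

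All 4 genes were lower in 8 of 8 accessions at 6 h, where 6.35% of all probe sets were lower in every accession, and in 8 of 8 at 24 h, where 11.7% were. With the arrays that stand apart removed, the 4 were lower in 7 of 7 and 6 of 6 accessions, against 9.83% and 17.7% of probe sets. These contrasts chose the genes, so their counts describe them and test nothing. Only EXPB7 separated the 6 h arrays from those before cold without overlap, on all arrays and also with the Lixingeng array before cold removed, where 1.25% of probe sets did. For EXPB4, EXPB11 and EXP2, the highest 6 h array lay above the lowest array before cold. At 24 h none of the 4 separated the groups on all arrays, where 0.805% of probe sets did. With the arrays that stand apart removed all 4 did, against 5.46% of probe sets. Just outside the chosen genes came EXPB6, another beta-expansin, at -0.80 at 6 h and -1.42 at 24 h. The nearest of the 4, EXP2, stood at -0.89 and -1.77.

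The share of the 24 h log2 difference already reached at 6 h could be read only for EXP2, which was above background throughout. In the 6 accessions without an array that stands apart its median was 44.7%, with 29.0% in Geng87-304 and 65.5% in Muguanuo. At 24 h the fungal controls were exceeded in 3 of these 6 accessions by EXPB4, in 1 by EXPB11 and in 0 by EXPB7, so a share for them would rest on values at background.

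From 6 h to 24 h the mean log2 differences were -0.56 for EXPB4, -0.35 for EXPB7, -0.57 for EXPB11 and -0.88 for EXP2, each lower in 7 of 8 accessions. Of all probe sets, 5.29% were lower in all 8 and 0.119% had no overlap between these times, which held for none of the 4 genes. The share lower in at least 7 of 8 was not computed, so these shares are no background for that count. EXPB7 was at background at both times in the 7 accessions where it was lower, so its differences there have no firm size. The exception was the array labelled MH63 at 24 h in every case, where the difference was 0.98, 1.09, 0.58 and 0.20. With the MH63 array at 24 h removed, all 4 were lower in 7 of 7 accessions, where 11.4% of probe sets were, and the means were -0.77 ± 0.56, -0.56 ± 0.27, -0.74 ± 0.43 and -1.04 ± 0.34 (SD, n = 7). Of the 4 genes, EXP2 alone then had all 24 h arrays below all 6 h arrays, 265 against 279, as 1.73% of probe sets did.

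**Figure D2:**
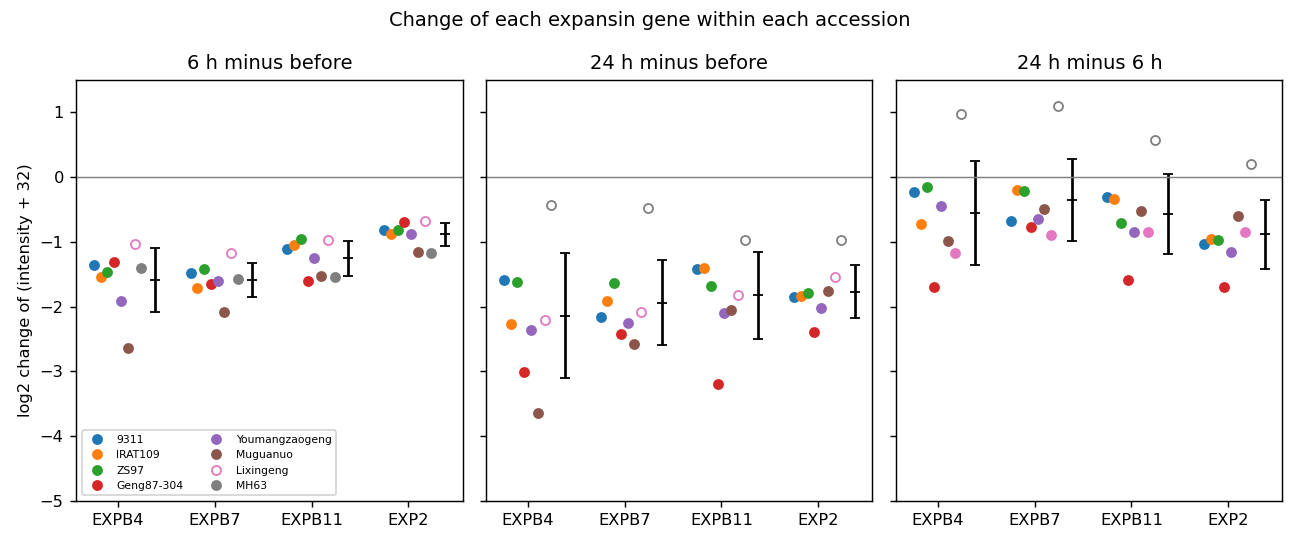
Log2 difference of (intensity + 32) within each accession for the 3 pairs of times, 1 point per accession, with the mean and SD over 8 accessions as a black bar. Open points rest on an array that stands apart. MH63 lies above 0 from 6 h to 24 h for all 4 genes, and the other 7 accessions lie below 0.

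On the plain intensity scale the accession with the largest ratio of EXP2 depended on the time. EXP2 was 3.68 times as bright before cold as at 24 h in Muguanuo, the smallest ratio of 6 accessions, and 5.97 times in Geng87-304, the largest, with a median of 4.27. At 6 h these 2 ends were exchanged, with 1.65 times in Geng87-304, the smallest, and 2.32 times in Muguanuo, the largest (median 1.89, n = 7). MH63, which is left out at 24 h, had 2.31 times at 6 h. For the beta-expansins, each later value below the fungal controls was replaced by the control, so the ratios are lower bounds. Such bounds also depend on the control of each array and do not rank the accessions. At 24 h EXPB4 was at least 3.33 times as bright before cold in 9311 and 18.1 times in Muguanuo (median at least 6.18). In Muguanuo its 24 h value of 64.3 only just exceeded the controls, which reached 63.1 or more on every array. The ratio of 18.1 therefore rests on a value at the edge of background. EXPB7 reached from at least 1.63 times in ZS97 to at least 6.13 times in Muguanuo (median at least 3.05). EXPB11 reached from at least 1.90 times in ZS97 to at least 8.51 times in Geng87-304 (median at least 4.08).

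The level of the 4 genes also differed between accessions, a measure that the choice of genes did not use, since every accession was arrayed at all 3 times. In limma's moderated F test on the accession term, with Benjamini-Hochberg adjustment over 57258 probe sets, the adjusted p was 0.0152 for EXPB4, 0.0153 for EXPB7, 0.000167 for EXPB11 and 6.83e-05 for EXP2. The accession means spanned 1.89, 1.26, 1.84 and 1.54 on the log2 scale. EXPB7 was above the fungal controls on 9 of 24 arrays and EXPB11 on 15, so their means rest in part on background values. The share of all probe sets that passed this test was 54.3%, so 4 of 4 is little above the background. Without the 2 arrays that stand apart the adjusted p was 0.0233, 0.00103, 0.000147 and 5.30e-06, the spans were 1.26, 0.70, 1.45 and 1.18, and 60.9% of probe sets passed. The call of EXPB4 was lost when accession 9311 was left out (adjusted p = 0.0545) and when MH63 was (adjusted p = 0.0681, span 0.96). Leaving out MH63 brought the span to 0.70 for EXPB7, 1.23 for EXPB11 and 0.90 for EXP2, with adjusted p of 0.00230, 0.000606 and 4.05e-05.

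Before cold the same 4 accessions were the brightest for each of the 4 genes, namely Geng87-304, MH63, Muguanuo and Youmangzaogeng. EXPB4 and EXPB7 were highest in Muguanuo, EXPB11 in Geng87-304 and EXP2 in MH63. 9311 was lowest for EXPB4 and EXP2, and ZS97 for EXPB7 and EXPB11. At 6 h Geng87-304 and MH63 alone were in the top 4 for every gene. EXPB7 was above the fungal controls on 0 of 8 arrays then, so its 6 h order is one of background values. With all arrays MH63 had the highest mean over the 3 times for all 4 genes. With the arrays that stand apart removed and means adjusted for time, MH63 was highest for EXPB4, EXPB11 and EXP2, and Geng87-304 for EXPB7 (7.201 against 7.197 in MH63, log2). Of 28 steps between neighbours in the accession orders of these means, 1 passed the test, MH63 over Youmangzaogeng for EXP2, by 0.64 ± 0.21 (model SE; adjusted p = 0.0407). That step was 0.28 without the arrays that stand apart (adjusted p = 0.228). The other neighbours did not differ beyond their spread in this test.

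**Figure D3:**
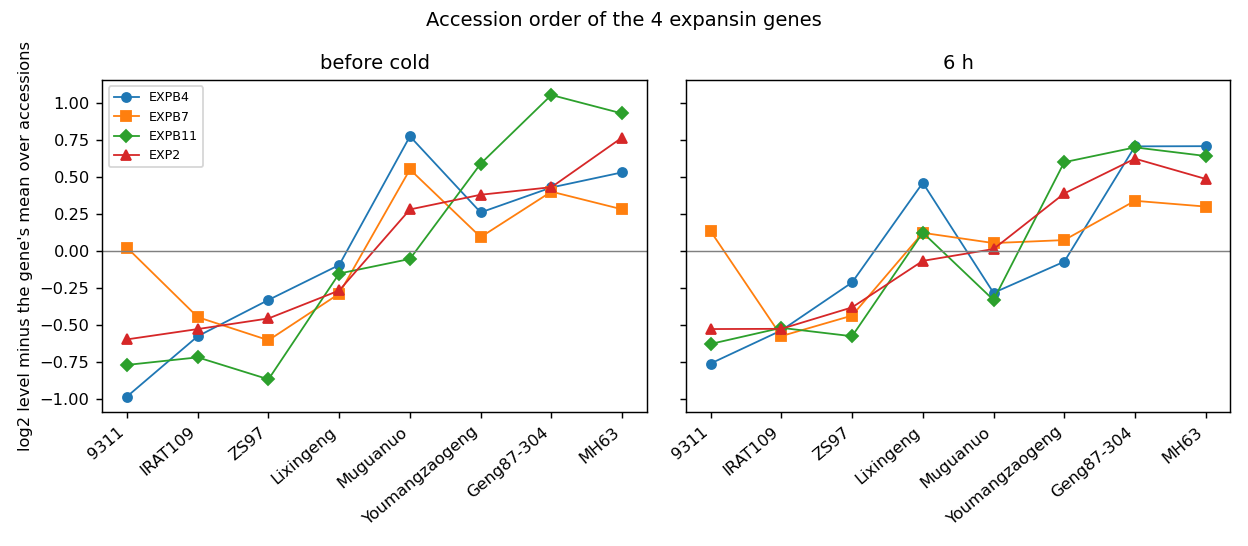
Log2 level of (intensity + 32) of EXPB4, EXPB7, EXPB11 and EXP2 in each accession, minus the gene's mean over the 8 accessions, before cold and at 6 h, with accessions in the order of EXP2 before cold. Each point is 1 array; the Lixingeng array before cold is one of the 2 that stand apart. Geng87-304 and MH63 lie above 0 for every gene in both panels, but EXPB7 is above the fungal controls on 0 of 8 arrays at 6 h.

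Levels of the 4 genes moved together across arrays. Pearson's r of log2 levels between pairs of them lay between 0.898 for EXPB7 with EXP2 and 0.952 for EXPB11 with EXP2, over 24 arrays that share accession, time and scaling. After the mean of each time point was subtracted, r lay between 0.785 and 0.920. This range still includes the MH63 array at 24 h, the highest 24 h array for each of the 4 genes, and was not computed without the arrays that stand apart. Without the arrays that stand apart the levels themselves gave 0.894 to 0.951. The genes were chosen for a shared time course, so the ranges of the levels themselves, with and without these arrays, describe that choice.

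The remaining family members show how far the pattern went among expansins. Of the 25 other expansin and expansin-like genes measured, 6 fell and 0 rose at 6 h (limma, adjusted p under 0.05), where 6.96% of all probe sets fell and 2.79% rose. At 24 h 10 fell and 3 rose, against 19.8% and 13.3% of all probe sets. From 6 h to 24 h 5 fell and 3 rose, against 10.1% and 7.94%. The median log2 difference of the 25 was -0.07 at both times, and that of all probe sets -0.01. Of the 25, 12 were above the fungal controls on at least 1 array and 5 on all 24, so many of these genes were too dim here for a change to be read. Of the genes counted as fallen, EXPB9 at 6 h and EXP6, EXP16 and EXPB9 at 24 h were above these controls on no array. When only probe sets above the controls on at least 1 array were tested, 6 fell at 6 h, and 7 fell and 3 rose at 24 h. Without the arrays that stand apart 8 fell and 0 rose at 6 h, and 10 fell and 4 rose at 24 h. The count that fell from 6 h to 24 h was 3 without ZS97, 2 without Geng87-304 and 3 without Youmangzaogeng.

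Among 8 other beta-expansins, 3 fell at 6 h and 4 fell at 24 h, and 1 rose at 24 h. EXPB6 ranged from 227 over 366 to 679 before cold, from 103 over 210 to 389 at 6 h and from 77.9 over 106 to 322 at 24 h. EXPB6 was lower in 7 of 8 accessions at 6 h (limma, -0.80 ± 0.50, SD, n = 8; adjusted p = 0.00119), with 0.02 in Youmangzaogeng, and in 8 of 8 at 24 h (-1.42 ± 0.44; adjusted p = 4.95e-07). Its highest 24 h array was MH63, as for the 4 genes. EXPB3 ranged from 2421 over 3285 to 4534 before cold and from 1642 over 2227 to 3503 at 24 h. EXPB3 fell by 0.31 ± 0.16 at 6 h (limma, adjusted p = 0.00510) and by 0.50 ± 0.21 at 24 h (adjusted p = 1.03e-05), so the groups overlapped while every accession went down. EXPB2 had -0.33 ± 0.33 at 6 h, which missed the threshold (limma, adjusted p = 0.0536), and fell by 0.52 ± 0.33 at 24 h. EXPB9 passed at both times (-0.33 and -0.40) although it was above the fungal controls on no array.

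Some of these genes are chromosomal neighbours. In the gene order of the ASM3414082v1 assembly, EXPB4, EXPB3, EXPB2 and EXPB6 follow each other on chromosome 10 without another protein-coding gene between them. Their mean log2 differences at 24 h were -2.14, -0.50, -0.52 and -1.42 in that order. EXPB7 stands beside EXPB8 on chromosome 3, and EXPB8 rose by 24 h (limma, 0.33 log2; adjusted p = 0.00858), lower in 1 of 8 accessions. EXPB8 was above the fungal controls on 6 of 24 arrays and is named here after its value was seen, as the neighbour of EXPB7. EXPB14, beside EXPB11 on chromosome 2, was not analysed here.

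**Figure D4:**
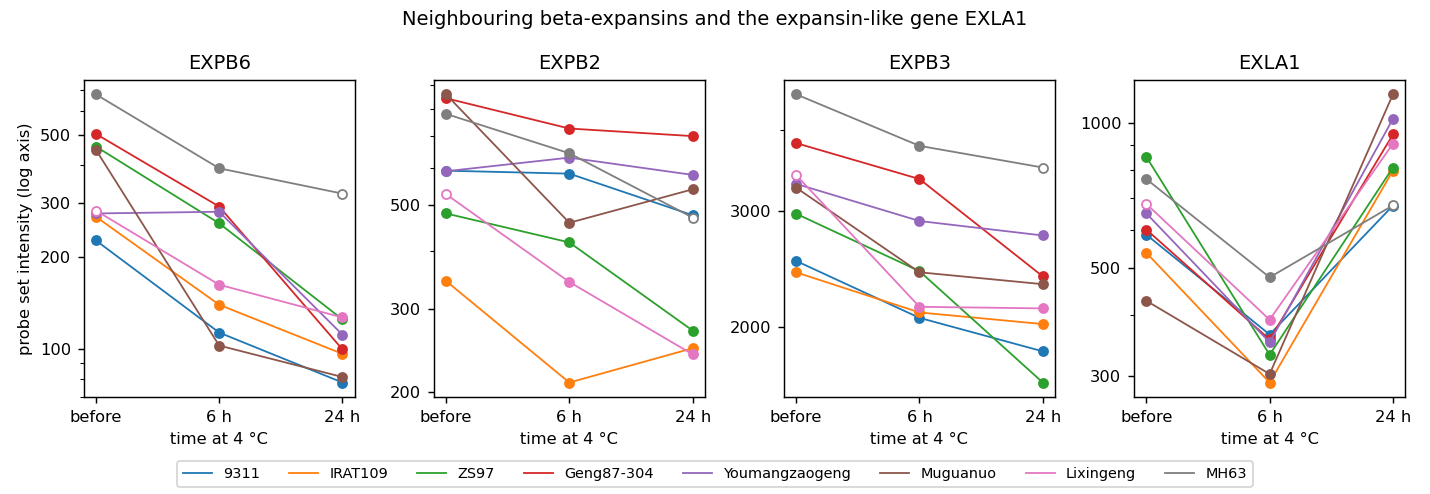
Intensity (log axis, a scale of its own in each panel) of EXPB6, EXPB2 and EXPB3, which lie beside EXPB4 on chromosome 10, and of the expansin-like gene EXLA1, 1 line per accession. Open points are the 2 arrays that stand apart. EXPB6 falls to a median of 106 at 24 h, while EXLA1 dips to 354 at 6 h and reaches 858 at 24 h.

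Alpha-expansins other than EXP2 were mostly at background. Of 13 measured, 1 fell at 6 h, and 4 fell and 1 rose at 24 h. EXP5 fell by 0.47 ± 0.36 at 6 h (limma, adjusted p = 0.0161) and by 0.36 ± 0.46 at 24 h (adjusted p = 0.0258), above the fungal controls on 2 of 24 arrays. EXP10 had -0.20 ± 0.19 at 6 h (limma, adjusted p = 0.148), and fell by 0.45 ± 0.28 at 24 h (adjusted p = 0.000197). Without the arrays that stand apart EXP10 passed at 6 h as well (limma, -0.25; adjusted p = 0.000429). EXP7 rose by 0.28 ± 0.09 at 24 h (limma, adjusted p = 0.000110) in 8 of 8 accessions, but was above the controls on only 3 of 24 arrays. EXP6, above the controls on no array, had -0.19 ± 0.06 at 24 h. None of these came within 1 log2 unit of the EXP2 difference at 24 h.

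The expansin-like genes, whose products resemble expansins in sequence and have no shown wall-loosening activity, did not all follow. EXLA1 ranged from 429 over 626 to 852 before cold, from 290 over 354 to 479 at 6 h, and from 675 over 858 to 1147 at 24 h. It fell by 0.77 ± 0.24 at 6 h in 8 of 8 accessions (limma, adjusted p = 0.000506), and its lowest 24 h array lay above its highest 6 h array. From 6 h to 24 h it rose by 1.20 in 8 of 8 (limma, adjusted p = 8.49e-06), and at 24 h it stood 0.44 ± 0.48 above its level before cold (adjusted p = 0.0113), lower in 2 of 8, ZS97 and MH63. EXLA4 fell at both times (-0.32 ± 0.19 and -0.60 ± 0.19, 8 of 8 accessions). EXLA3 missed the threshold at 6 h (-0.16 ± 0.23) and fell by 0.35 ± 0.40 at 24 h. Without the arrays that stand apart EXLA3 passed at 6 h as well (limma, -0.24; adjusted p = 0.0113).

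**Figure D5:**
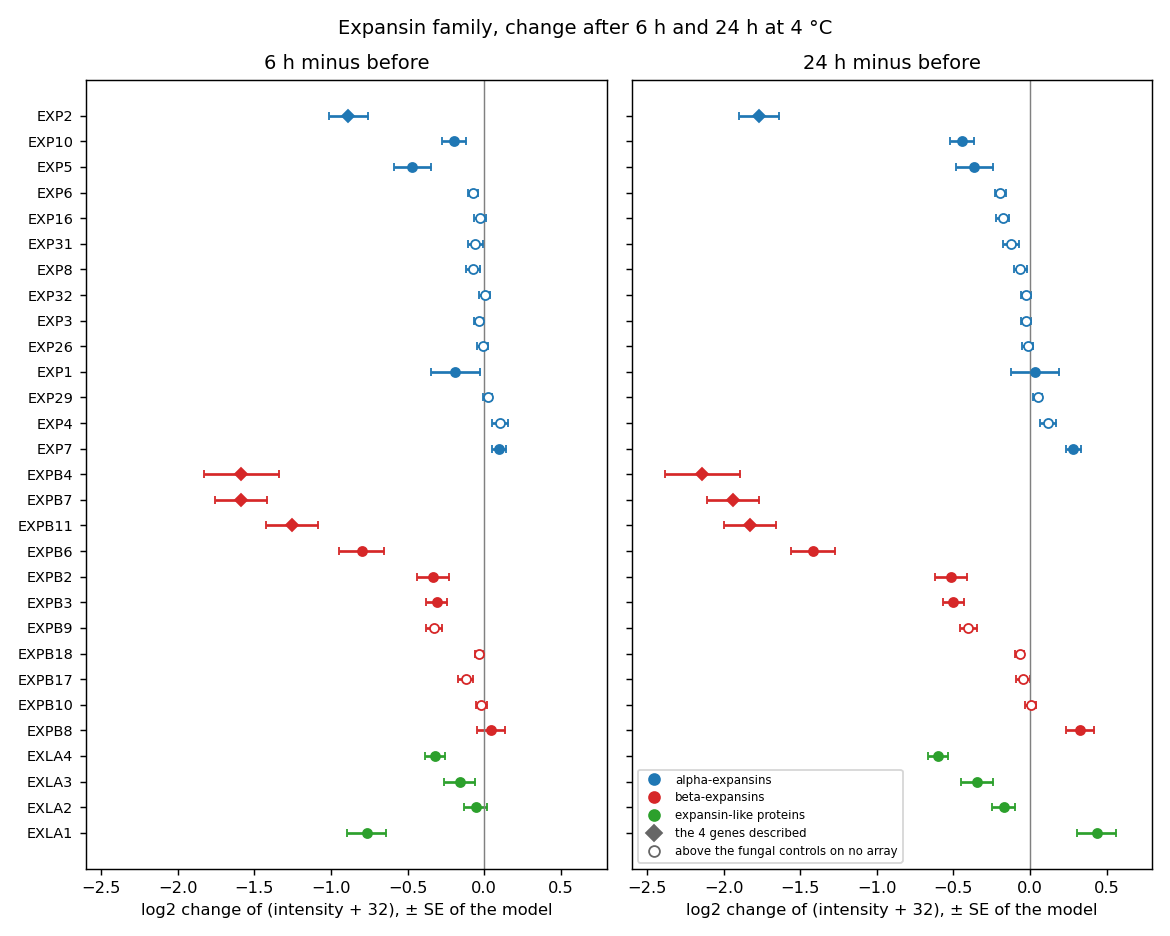
Log2 difference of (intensity + 32) from before cold at 6 h and 24 h for the 29 expansin and expansin-like genes measured, with the model's SE over 8 accessions. Diamonds are the 4 genes described, chosen on these values, and open circles are genes above the fungal controls on no array. The 4 diamonds and EXPB6 lie furthest below 0 at 24 h, and EXLA1 changes side between the panels.

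Genes for other wall polymers and for growth control were counted from lists drawn up with earlier results in view. Of the 79 measured, 19 fell and 2 rose at 6 h, and 32 fell and 19 rose at 24 h, with a median log2 difference of -0.09 and -0.08. Of all probe sets 6.96% fell and 2.79% rose at 6 h, and 19.8% fell and 13.3% rose at 24 h, the shares against which the counts of each list below are to be read. The 6 h count that fell was 12 without 9311, 9 without ZS97, 12 without Youmangzaogeng and 8 without Muguanuo, and the count that rose was 5 without the arrays that stand apart. Cellulose synthases went one way: of 9, 5 fell at 6 h and 7 at 24 h, with 0 rising (limma). CESA7, a subunit used in secondary walls, fell by 0.60 ± 0.42 at 6 h (limma, adjusted p = 0.00487) and by 0.84 ± 0.29 at 24 h (adjusted p = 4.35e-05), both in 8 of 8 accessions. Of 20 cellulose synthase-like genes, which make matrix glucans and mannans, 4 fell at 6 h, and 8 fell and 4 rose at 24 h. CSLF6, the main synthase of mixed-linkage glucan in grasses, fell by 0.85 ± 0.42 and 0.97 ± 0.48. XTH8, the only gene measured on the list of xyloglucan enzymes, had -0.42 ± 0.45 at 6 h (limma, adjusted p = 0.0653) and fell by 1.27 ± 0.50 at 24 h. At 6 h XTH8 passed without the arrays that stand apart (limma, -0.44; adjusted p = 0.0407).

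Wall hydrolases and inhibitors went both ways. Of 15 glucanase and mannanase genes, 4 fell at 6 h, and 7 fell and 2 rose at 24 h. MAN1, a mannanase gene, fell by 1.21 ± 0.19 and 1.67 ± 0.46 in 8 of 8 accessions, whereas MAN7 of the same family rose by 1.65 ± 0.62 at 24 h in 8 of 8. Among 2 pectin methylesterase inhibitor genes, PMEI28 rose by 1.72 ± 0.75 and 2.79 ± 0.82 and PMEI8 fell by 0.76 ± 0.45 and 1.78 ± 0.81. MAN1 and PMEI8 were each above the fungal controls on 14 of 24 arrays, with 24 h medians of 55.0 and 26.2. MAN7 was above them on 8, with a median of 38.4 before cold, and PMEI28 on 21. The sizes for MAN1, MAN7 and PMEI8 thus rest in part on values at background.

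Growth regulators moved in both directions by 24 h. Of 10 growth-regulating factor genes, whose products are transcription factors of young organs, 1 rose and 1 fell at 6 h, and 5 rose and 1 fell at 24 h. GRF3 rose by 1.53 ± 0.67 at 24 h and GRF5 fell by 0.43 ± 0.22. GRF3 was above the fungal controls on 16 of 24 arrays and GRF5 on 1. Among the other genes of this family that rose, GRF1 was above them on 5, GRF4 on 3, and GRF6 and GRF12 on 0. Most of these calls therefore rest on values near background. Of 12 gibberellin genes, 1 fell at 6 h, near the share of all probe sets, and 5 rose and 2 fell at 24 h. GAMYB, a transcription factor of the gibberellin response, rose by 0.63 ± 0.27 at 24 h in 8 of 8 accessions (limma, adjusted p = 1.85e-06). KAO, which makes a gibberellin precursor, fell by 0.80 ± 0.36 at 24 h. Of 10 brassinosteroid genes, 3 fell at 6 h, and 2 rose and 5 fell at 24 h, with the receptor gene BRI1 rising by 0.74 ± 0.58 and IBH1, a negative regulator of cell elongation, falling by 0.78 ± 0.21.

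Of 8 markers of dividing tissue measured, 4 fell and 0 rose at 6 h and again at 24 h (HOX4, PCNA, CYCB2-1 and CYCD3-1). This list too was drawn up with earlier results of these data known. OSH1, OSH71, CYCB2-2 and CYCA2-1 did not pass, with -0.02, 0.05, -0.07 and 0.05 at 24 h. The summed intensity of the 8 ranged from 918 over 1408 to 1920 before cold, from 506 over 677 to 906 at 6 h and from 305 over 370 to 1191 at 24 h. Most of that sum is HOX4, a homeobox gene that is also expressed outside meristems, with a median of 1102 before cold, 414 at 6 h and 137 at 24 h, and 892 on the MH63 array at 24 h. Without that array the highest 24 h sum was 532. Of the 8, 6 were above the fungal controls on no array, CYCB2-1 and CYCD3-1 among them, and PCNA was above them on 6 of 24. Their part in the expansin differences was not tested.

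Over all 24 arrays, the named genes with the pattern most like each of the 4 were found among 2454 genes by Pearson's r of log2 levels, as a description. For EXPB4 these were MAN1 (r = 0.937), the receptor kinase gene CR4 (r = 0.930) and GT43A (r = 0.913), a family of glycosyltransferases that act in xylan synthesis. For EXPB7 they were GT43A (r = 0.963), the protein kinase gene CIPK5 (r = 0.946) and the cyclin gene CYCP2-1 (r = 0.943). CR4 came first for EXPB11 (r = 0.929), followed by SLY1 (r = 0.913) and PP2A1 (r = 0.902). EXP2 was most like the kinesin gene KIN13A, the tubby-like gene OsTLP5 (both r = 0.944) and SRP14 (r = 0.943). Without the arrays that stand apart these 12 values lay between 0.907 and 0.963.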

How the data were processed

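The deposited table holds 1 intensity value per probe set and array on a linear scale. How the authors summarised, background-corrected and scaled the values is not given in the sources used here, and the table's values were used unchanged apart from the logarithm. Of 57381 probe sets, 123 controls were left out and 57258 were tested. The platform annotation named 1 gene for 22436 probe sets, several for 95 and none for 34727. All 22436 were found in the RefSeq gene table (assembly ASM3414082v1), which was used for names and gene order only.

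Log2(intensity + 32) was fitted with limma 3.58.1 (R 4.3.3) on time and accession, with eBayes and a mean-variance trend, with Benjamini-Hochberg adjustment of p-values across the tested probe sets and a threshold of 0.05. Accession enters as a block, since each was labelled at all 3 times. Arrays of the same accession deviated together from the time means, with r from 0.248 to 0.886 over 24 pairs. The number of arrays limits precision. For the time contrasts, p-values measure changes against their spread between accessions. For the accession term, the 3 times of an accession stand in for replicates. A probe set counted as above background when it exceeded the highest of 10 fungal control probe sets on its array. Bounds set the level before cold against that control, or the later value where higher. The script was tested on simulated data.

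The members and lists were chosen with earlier results of these data known, so no test was made on the members' time contrasts. Genes named from each list were those that passed at 6 h or 24 h with the largest changes, up to 4 other alpha-expansins, up to 4 other beta-expansins and up to 3 of each other list, and for likeness the 3 named genes of highest r. The symbols GID2 and CYCB1-1 each matched more than 1 gene and were left out. Alternatives were offsets of 16 and 64, quantile normalization, equal array medians, a dim-probe filter, array weights, no trend, no accession block, each accession left out and the arrays that stand apart left out. Leaving out both accessions that hold those arrays was chosen after seeing the data. Other probe sets of the 4 genes could not be tried, since each has 1.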

Additional observations from a re-analysis of the deposited data

Results flagged for a closer look

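In groups of 8 accessions, an array was marked where its gap to the nearest other array was a large share of the group's range (Dixon's test). Of 88 groups tested 13 were marked, where about 4 would be by chance at 1 in 20. The MH63 array at 24 h, one of the 2 that stand apart, was the high outlier for each of the 4 genes, at a log2 level of 9.56 for EXPB4, 7.96 for EXPB7, 8.57 for EXPB11 and 9.49 for EXP2. For EXPB7 its log2 differences of -0.48 from before cold and 1.09 from 6 h were marked as well.

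The array of Lixingeng before cold, the other of the pair, underlies 3 marked differences at 6 h, which were 0.25 for EXP10, 0.34 for EXLA3 and -0.62 for MAN7. The remaining marks rest on other arrays. At 6 h EXP6 stood at 0.065 in Geng87-304, EXPB6 at -1.83 in Muguanuo and EXLA1 at -1.28 in ZS97, and at 24 h CSLF6 stood at 0.066 in IRAT109.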

How the results depend on the processing

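The differences of EXPB4, EXPB7, EXPB11 and EXP2 kept their sign under every alternative run. EXPB7 at 6 h was -1.32 with an offset of 64. With the accession block removed ("no replicate block"), fewer other expansins passed: 2 fell at 6 h, and from 6 h to 24 h 0 fell and 1 rose. Among the other wall and growth genes, without the block, 5 fell and 1 rose at 6 h, 14 fell at 24 h, and 2 fell and 7 rose from 6 h to 24 h. The 2 that rose at 6 h became 4 with the dim-probe filter, 5 with array weights, 4 with quantile normalization, 4 without Lixingeng and MH63 and 5 without the 2 arrays that stand apart. The 9 that fell from 6 h to 24 h became 14 with array weights. The accession span of EXPB4 was 0.96 without Lixingeng and MH63 (adjusted p = 0.0625), which ended its call.

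With 1 accession left out, the span lay between 0.96 and 1.89 for EXPB4, 0.70 and 1.26 for EXPB7, 1.23 and 1.84 for EXPB11 and 0.90 and 1.54 for EXP2, lowest without MH63 in each case. Other expansins that fell numbered 5 to 7 at 6 h and 2 to 6 from 6 h to 24 h. Other wall and growth genes numbered 8 to 20 falling and 2 to 3 rising at 6 h, 29 to 32 falling and 15 to 20 rising at 24 h, and 7 to 12 falling and 10 to 19 rising from 6 h to 24 h. GLU1 and BZR1, near 0 at 6 h (0.0036 and -0.06 log2, adjusted p = 0.994 and 0.876), changed sign. GLU1 was -0.041 without Lixingeng and MH63, and with 1 accession left out it reached from -0.062 to 0.081. BZR1 was 0.011 with quantile normalization, 0.023 without the 2 arrays that stand apart and between -0.10 and 0.0022 with 1 accession left out. Of the values for named genes, 1102 kept direction and side of the threshold, 49 lost a call, 25 gained one and 8 changed sign. The cause of these shifts was not tested. Values at the level of the fungal controls, as for EXPB7 after cold, are limited by background.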
